A study of Mus musculus with 6 samples.

Results

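The genes described here are 6 regulators of primordial germ cell specification and survival, namely Prdm1, Prdm14, Tfap2c, Ifitm1, Ifitm3 and Kit. They were taken as a named list, matched by gene symbol in the platform annotation, and the brightest probe set of each gene was used. All 6 were found among the 19938 genes that had a probe set with a single symbol. Transcript levels came from 6 arrays. The cells were mouse embryonic stem cells of the V6.5 line carrying a doxycycline-inducible short hairpin RNA, 1 array for each hairpin with doxycycline (dox) at 1 µg/ml and 1 without. The groups were shRNA1+dox and shRNA2+dox (hairpins against Pcgf6, induced), Scrambled+dox, then shRNA1-dox and shRNA2-dox, and Scrambled-dox. Per the labels' protocols, all were V6.5 stem cells kept with LIF-conditioned medium on inactivated mouse embryo fibroblasts, the feeder cells, so feeder RNA can be part of a sample. No germ cells were sampled, and each hairpin was measured on a single pair of arrays.

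Primordial germ cells are the embryonic precursors of sperm and eggs. In the mouse embryo BMP signals from neighbouring tissue induce them in the proximal epiblast, where the transcription factors Prdm1 (Blimp1), Prdm14 and Tfap2c (AP-2 gamma) together repress the somatic programme and start the germ cell programme. Ifitm3 (Fragilis) and Ifitm1 are interferon-inducible membrane proteins that mark the epiblast cells competent to become germ cells, and Kit is the receptor tyrosine kinase through which stem cell factor, made by somatic cells, supports germ cell survival and migration. Prdm14 and Tfap2c are also part of the stem cell state in culture.

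Kit showed the largest change with dox of the 6, and its promoter is therefore shown. The 250 bases before the Kit start in RefSeq, GRCm38.p6, chr5:75574737-75574986, plus strand, had a G+C content of 70.8%, against a median of 52.4% over 32851 promoter windows. The same stretch had 59.2% for Prdm1 and 53.6% for each of Ifitm1 and Ifitm3. A relation of G+C content to the change with dox was not tested. The Ifitm3 sequence is shown for its matches to the interferon-stimulated response element. These are the first 30 bases from the Ifitm3 start, chr7:141010715-141010744, minus strand, with the matches in capitals.
Kit: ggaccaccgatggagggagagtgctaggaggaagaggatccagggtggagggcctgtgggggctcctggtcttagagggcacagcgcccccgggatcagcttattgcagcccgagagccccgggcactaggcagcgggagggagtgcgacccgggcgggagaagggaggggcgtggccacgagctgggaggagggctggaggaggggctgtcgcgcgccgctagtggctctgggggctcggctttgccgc
Ifitm3: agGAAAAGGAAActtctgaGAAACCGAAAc
RefSeq promoter windows, 250 bases before to 50 after a start, were matched for 4 of the 6 genes (Prdm1, Ifitm1, Ifitm3 and Kit). Both strands were searched for 4 motifs. The E-box CACGTG, the E2F motif GCGGGAA and the T-box motif AGGTGTGA, which are bound by factors of the Pcgf6-containing complex PRC1.6, had no match in these windows, and were present in 7.15%, 4.6% and 1.28% of all windows. The interferon-stimulated response element, searched as GAAANNGAAA, was found in 3.44% of all windows and, of these genes, in the window of Ifitm3, where it matched at bases 3 and 20 counted from the start. The motifs do not overlap in these matches, and a match is a description of the letters.

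The knockdown was present in both induced hairpin lines. Pcgf6 measured 9.39 and 9.27 on the log2 scale with dox in the hairpin 1 and hairpin 2 lines, against 11.56 and 11.70 without dox, and 11.82 with against 11.80 without dox in the Scrambled line. Of 19938 genes, 40 passed an adjusted p of 0.05 by limma for dox against no dox in the Pcgf6-hairpin lines. That count was between 14 and 26 when a hairpin array was left out. The mean of 18 feeder fibroblast markers was 9.94 and 10.24 with dox in the hairpin 1 and hairpin 2 lines, against 9.93 and 9.78 without, and 9.61 with against 9.04 without dox in the Scrambled line. The uninduced Scrambled array thus had the lowest feeder signal of the 6. The mean of 10 stem cell markers lay between 11.80 and 12.02 on all arrays, and the lowest single marker value was 9.81. Single stem cell markers changed with dox by -0.15 to 0.63 over both Pcgf6 hairpins, and none passed by limma. In such bulk samples fewer cells of a type and less RNA per cell cannot be told apart.

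The first comparison was that of dox against no dox in the Pcgf6-hairpin lines, for each of the 6 genes. None passed by limma, where 0.201% of all genes did, and 2 of the 6, Kit and Prdm14, had an unadjusted p under 0.05, where 8.75% of all genes did. With dox, 4 of the 6 (Prdm1, Prdm14, Tfap2c and Kit) were higher on both induced arrays than on either uninduced array, a pattern seen in 17.9% of all genes. The median change of the 6 was 0.14 on the log2 scale, against -0.01 over all genes tested.

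Prdm1 encodes the zinc finger repressor that starts the germ cell programme. Prdm1 measured 8.85 and 9.002 with dox in the hairpin 1 and hairpin 2 lines, against 8.81 and 8.65 without dox. The groups did not overlap, but the lowest induced and the highest uninduced array were both of hairpin 1 and lay close together. Hairpin 1 gave a change of 0.05 and hairpin 2 one of 0.35, and over both the estimate was 0.20 (SE 0.10, 95% interval -0.04 to 0.44, limma adjusted p = 0.648). Without the induced or the uninduced hairpin 2 array the estimate was 0.13 or 0.12. Prdm1 in the Scrambled line measured 8.94 with dox and 8.86 without.

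Prdm14 encodes a PR domain protein needed for the germ cell fate and for the naive stem cell state. Prdm14 measured 8.35 and 8.44 with dox in the hairpin 1 and hairpin 2 lines, against 8.04 and 8.14 without dox. Both induced arrays were above both uninduced ones, by similar amounts of 0.32 and 0.30. The change over both hairpins was 0.31 (SE 0.09, 95% interval 0.09 to 0.53, limma adjusted p = 0.46), or 1.24-fold. In the Scrambled line the sign was opposite, with 8.42 with dox and 8.66 without. The highest level of Prdm14 on any array was that of uninduced Scrambled cells.

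Tfap2c encodes the AP-2 factor that acts downstream of Prdm1 in the germ cell network. Tfap2c measured 9.96 and 9.98 with dox in the hairpin 1 and hairpin 2 lines, against 9.86 and 9.92 without dox, a change of 0.08 over both hairpins (SE 0.08, 95% interval -0.12 to 0.28, limma adjusted p = 0.836). The 4 hairpin arrays were close to each other. In the Scrambled line Tfap2c measured 10.24 with dox and 10.55 without, both above every hairpin array, and the change was -0.32.

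**Figure D1:**
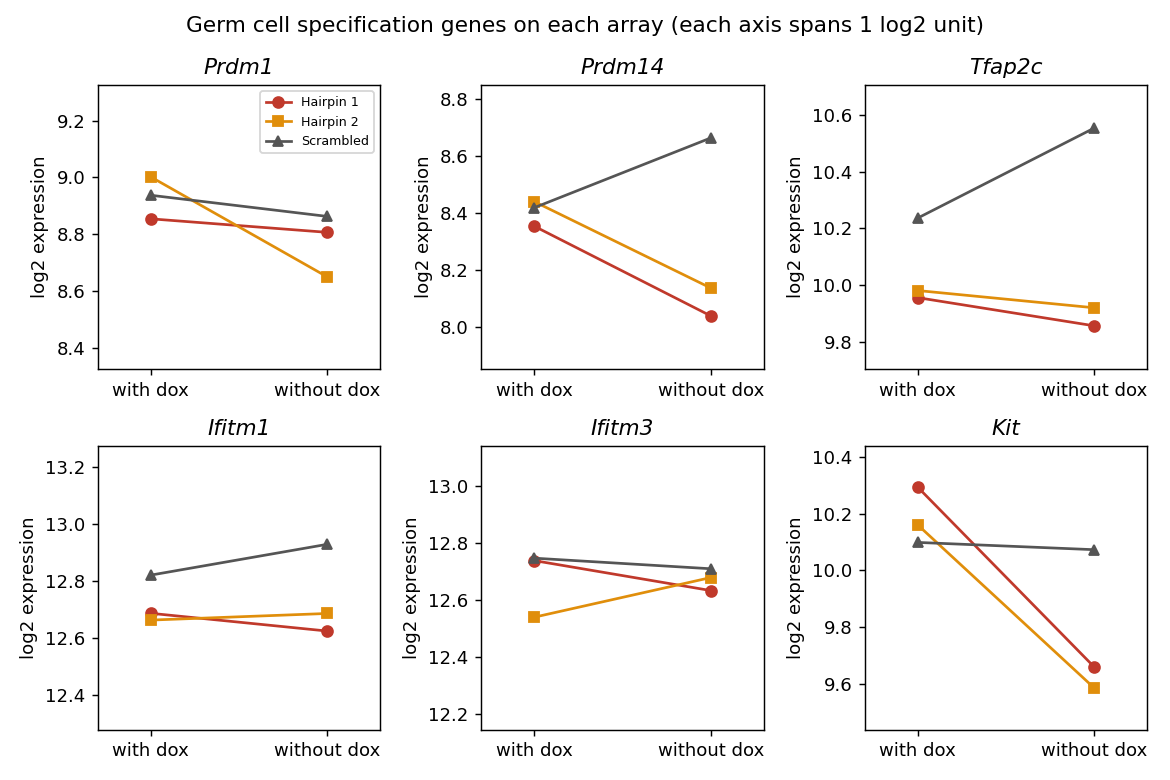
Log2 expression of the 6 genes on each array, with dox at left and without dox at right of each panel. Lines join the arrays of a hairpin line (hairpins 1 and 2 against Pcgf6, and Scrambled), each panel spans 1 log2 unit, and Kit separates by treatment in the hairpin lines while Tfap2c is highest in the Scrambled line.

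The Ifitm genes, which mark competent epiblast cells, had changes near 0 over both hairpins. Ifitm1 measured 12.69 and 12.66 with dox in the hairpin 1 and hairpin 2 lines, against 12.62 and 12.69 without dox, and the groups overlapped. The change was 0.02 (SE 0.08, 95% interval -0.18 to 0.22, limma adjusted p = 0.971). In the Scrambled line Ifitm1 measured 12.82 with dox and 12.93 without, above all 4 hairpin arrays. Of the 6 genes only Ifitm1 had a second probe set, which measured changes of 0.19, 0.02 and -0.18 under hairpin 1, hairpin 2 and Scrambled, against 0.06, -0.02 and -0.11 for the one used.

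Ifitm3 measured 12.74 and 12.54 with dox in the hairpin 1 and hairpin 2 lines, against 12.63 and 12.68 without dox. The induced arrays enclosed the uninduced ones, and the hairpins differed in direction, with 0.11 and -0.14. The change over both was -0.02 (SE 0.10, 95% interval -0.26 to 0.22, limma adjusted p = 0.981). Scrambled cells had an Ifitm3 level of 12.75 with dox and 12.71 without. The whole range of Ifitm3 over the 6 arrays was 0.21. Ifitm1 and Ifitm3 lie near each other on chromosome 7 and are related copies, and signal shared between their probes was not tested.

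Kit, the receptor for stem cell factor, was the member with the largest change. Kit measured 10.29 and 10.16 with dox in the hairpin 1 and hairpin 2 lines, against 9.66 and 9.59 without dox. Kit averaged 10.23 ± 0.09 with dox and 9.62 ± 0.05 without dox in these lines (SD, n = 2 each), and the groups were well apart. Hairpin 1 gave a change of 0.63 and hairpin 2 one of 0.57, and over both the estimate was 0.60 (SE 0.09, 95% interval 0.38 to 0.83), or 1.52-fold. Kit did not pass over all genes (limma adjusted p = 0.105), and over the alternatives tried its adjusted p by limma lay between 0.0596 and 0.887.

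The Kit difference was among the larger ones within each Pcgf6-hairpin pair and among the smaller ones in the Scrambled pair. A larger change in either direction was found for 0.692% of all genes under hairpin 1 and 2.73% under hairpin 2, against 86.9% in the Scrambled pair. Ranked by the smaller of the hairpin 1 and hairpin 2 changes, 68 of the 19938 genes lay above Kit. Kit in the Scrambled line measured 10.10 with dox and 10.07 without. Relative to Scrambled at the same treatment, the hairpin lines differed on average by 0.13 with dox and -0.45 without dox, so the induced lines were near the Scrambled level and the uninduced lines below it. The Kit difference of hairpin 1 was measured at feeder marker means of 9.94 with dox and 9.93 without, and that of hairpin 2 at 10.24 with dox and 9.78 without.

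**Figure D2:**
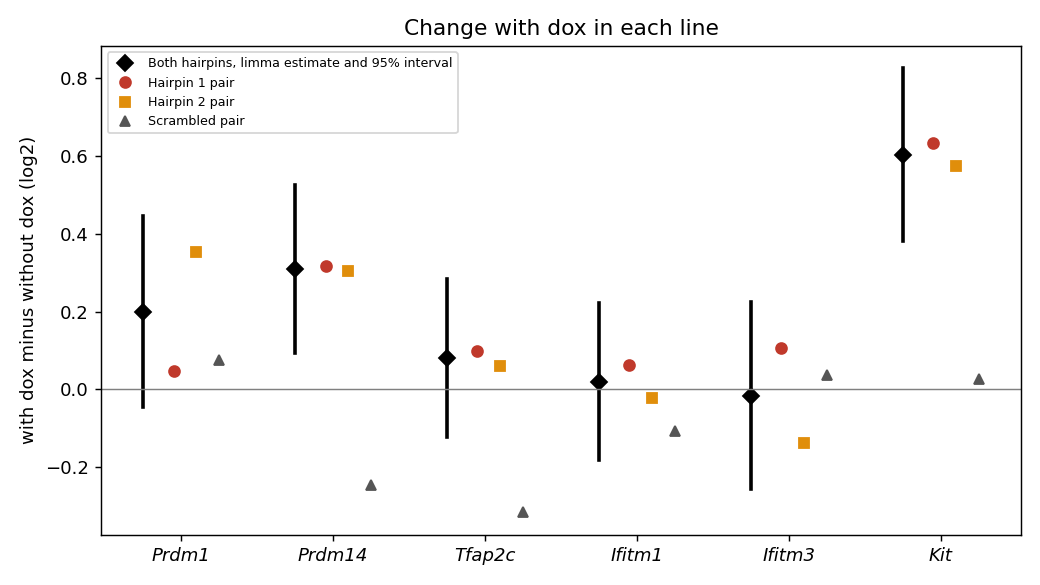
Change with dox, in log2 units, for each of the 6 genes. Diamonds and bars give the limma estimate over both Pcgf6 hairpins with its 95% interval, and the circle, square and triangle give the pairs of hairpin 1, of hairpin 2 and of Scrambled, and the Kit interval of 0.38 to 0.83 is the one farthest from 0.

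The dox change of the Pcgf6 hairpins was then set against that of Scrambled. By limma none of the 6 passed, where 0.0702% of all genes (14 of 19938) did, and 3 of the 6 had an unadjusted p under 0.05, where 4.55% of all genes did. With the hairpin line as a block 23 genes passed, and the count was between 0 and 4 when a hairpin array was left out. The difference was 0.58 for Kit (SE 0.16, 95% interval 0.19 to 0.96, limma adjusted p = 0.915), 0.56 for Prdm14 (SE 0.16, 95% interval 0.18 to 0.93, adjusted p = 0.93) and 0.40 for Tfap2c (SE 0.15, 95% interval 0.05 to 0.75, adjusted p = 0.999). For Kit the hairpin lines measured 0.60 and the Scrambled pair 0.03. For Tfap2c the hairpin lines measured 0.08 and the Scrambled pair, a single array against a single array, -0.32. Prdm14 and Tfap2c had positive differences in both hairpin pairs and a negative one in the Scrambled pair, a pattern that 23.4% of all genes showed. Differences for Prdm1, Ifitm1 and Ifitm3 were 0.13, 0.13 and -0.05, with adjusted p of 0.999 each by limma.

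Pooling the 3 lines asked for a change with dox whatever the hairpin. By limma 0 of the 6 and 0.0% of all genes passed, and 1 of the 6, Kit, had an unadjusted p under 0.05, where 7.16% of all genes did. Without the induced Scrambled array 54 genes passed. Kit averaged 10.18 ± 0.10 with dox and 9.77 ± 0.26 without dox (SD, n = 3 each), a change of 0.41 (SE 0.13, limma adjusted p = 0.673). This model did not pair the arrays by line. With the line as a block the adjusted p of Kit by limma was 0.3555. Kit was the only one of the 6 whose 3 induced arrays all lay above the 3 uninduced ones, which 4.08% of all genes did. The lowest induced and the highest uninduced array for Kit were both of the Scrambled line and lay 0.03 apart. Prdm1 measured 0.16 (SE 0.08, limma adjusted p = 0.676), and the other 4 genes measured between -0.05 and 0.12.

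The level of several of the 6 genes differed more between lines than with dox, and a comparison of the 4 Pcgf6-hairpin arrays with the 2 Scrambled arrays was added after the values were seen. All 6 genes were on average lower in the hairpin lines, with a median of -0.19 against 0.00 over all genes. None passed by limma, where 0.0401% of all genes (8 of 19938) did, and 3 of the 6 had an unadjusted p under 0.05, where 11.1% of all genes did. The count over all genes was 212 when the shRNA1+dox array was left out, 1 without shRNA1-dox and 0 without shRNA2-dox. Tfap2c differed by -0.47 (SE 0.07, 95% interval -0.64 to -0.29, limma adjusted p = 0.0979), Prdm14 by -0.30 (SE 0.08, adjusted p = 0.226) and Ifitm1 by -0.21 (SE 0.07, adjusted p = 0.361). The 2 Scrambled arrays were of 1 line, and the 2 arrays of each hairpin line were treated as separate. The spread behind these errors came only from hairpin 1 against hairpin 2 within a treatment. It thus holds no variation among Scrambled lines. For Tfap2c and Ifitm1 the 4 hairpin arrays all lay below both Scrambled arrays, which 8.38% of all genes did.

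Except for Ifitm3, the line differences were smaller in size with dox than without, as values with no test. For Ifitm3 the difference was -0.11 with dox and -0.05 without, and for Prdm1 it was -0.01 with dox and -0.13 without. For the others the hairpin lines with dox differed from Scrambled on average by -0.27 for Tfap2c, -0.02 for Prdm14, 0.13 for Kit and -0.15 for Ifitm1. Without dox the same differences were -0.66 for Tfap2c, -0.58 for Prdm14, -0.45 for Kit and -0.27 for Ifitm1. The uninduced Scrambled array was the highest of all 6 for Prdm14, Tfap2c and Ifitm1. On that array the feeder marker mean was the lowest, 9.04, and the stem cell marker mean the highest, 12.02. All 18 feeder markers were on average higher in the hairpin lines than in the Scrambled line, with a median of 0.61. None passed by limma, where the lowest adjusted p was 0.0533. By the same test 15 of the 18 had an unadjusted p under 0.05, where 11.1% of all genes did. For 12 of the 18 every hairpin array lay above both Scrambled arrays, which 1931 of the 19938 genes showed. The part of the feeder cells in the line differences was not tested.

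**Figure D3:**
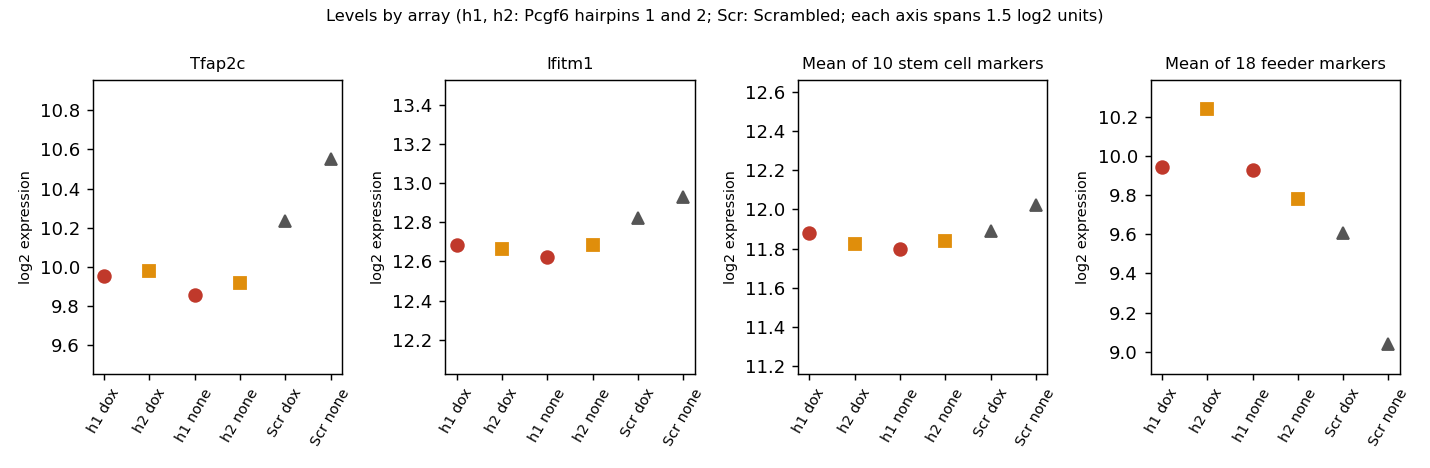
Log2 levels by array for Tfap2c, Ifitm1, the mean of 10 stem cell markers and the mean of 18 feeder markers, with the 4 Pcgf6-hairpin arrays (h1, h2) at left and the Scrambled arrays (Scr) at right. Each panel spans 1.5 log2 units, and the uninduced Scrambled array is highest in the first 3 panels and lowest, at 9.04, for feeder markers.

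The rest of the germ cell pathway was taken from a list of 51 genes, of which 49 were analysed here. For dox against no dox in the Pcgf6-hairpin lines, 2 rose by limma (0.191% of all genes did), 0 fell and 47 did not pass, and the median change was 0.02 on the log2 scale. Both genes that rose act in germ cells after specification. Ddx4, the germ cell RNA helicase, measured 11.01 and 10.92 with dox in the hairpin 1 and hairpin 2 lines, against 9.30 and 9.20 without dox, a rise of 1.72 (SE 0.09, 95% interval 1.497 to 1.94, limma adjusted p = 0.00178). Dazl, a germ cell RNA-binding protein, measured 8.36 and 8.38 with dox, against 7.37 and 7.48 without dox, a rise of 0.94 (SE 0.09, 95% interval 0.73 to 1.16, limma adjusted p = 0.0202). In the Scrambled line Ddx4 measured 9.08 with dox and 8.98 without, and Dazl 7.49 with dox and 7.62 without. The lower bounds of both rises lay above the upper bounds of the changes of Prdm1, Prdm14, Tfap2c, Ifitm1 and Ifitm3. The lower bound of Dazl lay below the upper bound of Kit.

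The other 7 of the 9 later germ cell genes did not pass. Dppa3 (Stella), a maternal and germ cell protein, measured 0.27 (SE 0.13, limma adjusted p = 0.62) over both hairpins, and in the Scrambled line 10.15 with dox against 10.69 without. Nanos3, an RNA-binding protein needed for germ cell survival, measured 0.23 (SE 0.12, adjusted p = 0.65). Nanos2, which acts in male germ cells, measured -0.08 and the alkaline phosphatase gene Alpl 0.05. Dppa3, like Prdm14, was highest on the uninduced Scrambled array.

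Signals and receptors of the pathway had no member past the threshold, with 0 of 9 signals and 0 of 13 receptors, transducers and their targets. Bmp8b, a BMP ligand of the extraembryonic ectoderm, had the largest value among the signals at 0.52 (SE 0.14, limma adjusted p = 0.421), with 0.33 and 0.72 under the hairpins and 0.11 under Scrambled. Wnt3 measured 0.37 (SE 0.15) over both hairpins, against 0.56 in the Scrambled pair. Bmp2 measured 0.27 (SE 0.20), with -0.05 and 0.59 under the hairpins, against 0.69 under Scrambled. The median change of the 9 signals was -0.05 under hairpin 1 and 0.16 under hairpin 2, against 0.37 under Scrambled. The gene for the Kit ligand, Kitl, measured -0.11 and 0.53 under hairpin 1 and hairpin 2 and 0.48 under Scrambled. The feeder markers had median changes of 0.00, 0.48 and 0.61 in the same pairs, and the part of the feeder cells in the Kitl values was not tested. Kit itself measured 0.63, 0.57 and 0.03 in these pairs, and the part of the feeder cells in its values was not tested either.

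Among receptors and transducers, Id2, a target of BMP signalling, measured 0.31 (SE 0.09, limma adjusted p = 0.488), Id1 0.27 (SE 0.15), the BMP type I receptor gene Acvr1 0.25 (SE 0.12) and the chemokine receptor gene Cxcr4, which guides migrating germ cells, 0.24 (SE 0.10). Under hairpin 1 alone Id1 was -0.04 and under hairpin 2 it was 0.59. Acvr1 measured 0.05 and 0.45 under the hairpins, against 0.37 under Scrambled, and Cxcr4 0.11 and 0.37, against 0.38. The Scrambled pair thus changed as much as the hairpin average or more for both. Id2 and Id1 measured -0.09 and 0.13 in the Scrambled pair. Of 11 partner factors 0 passed, with Klf2 at -0.29 (SE 0.13), Klf4 at 0.23 (SE 0.09), the RNA-binding gene Lin28a at -0.21 (SE 0.08) and the histone methyltransferase gene Ehmt1 at -0.14 (SE 0.09). Of 7 somatic and DNA methylation genes, which are held down in germ cells, 0 passed. Dnmt3b, a de novo DNA methyltransferase, measured -0.65 (SE 0.08, limma adjusted p = 0.0688), Dnmt3a -0.37 (SE 0.09), the maintenance factor Uhrf1 -0.26 (SE 0.09) and the homeobox gene Evx1 -0.04. In the Scrambled pair Dnmt3b, Dnmt3a and Uhrf1 measured -0.11, -0.36 and -0.11.

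**Figure D4:**
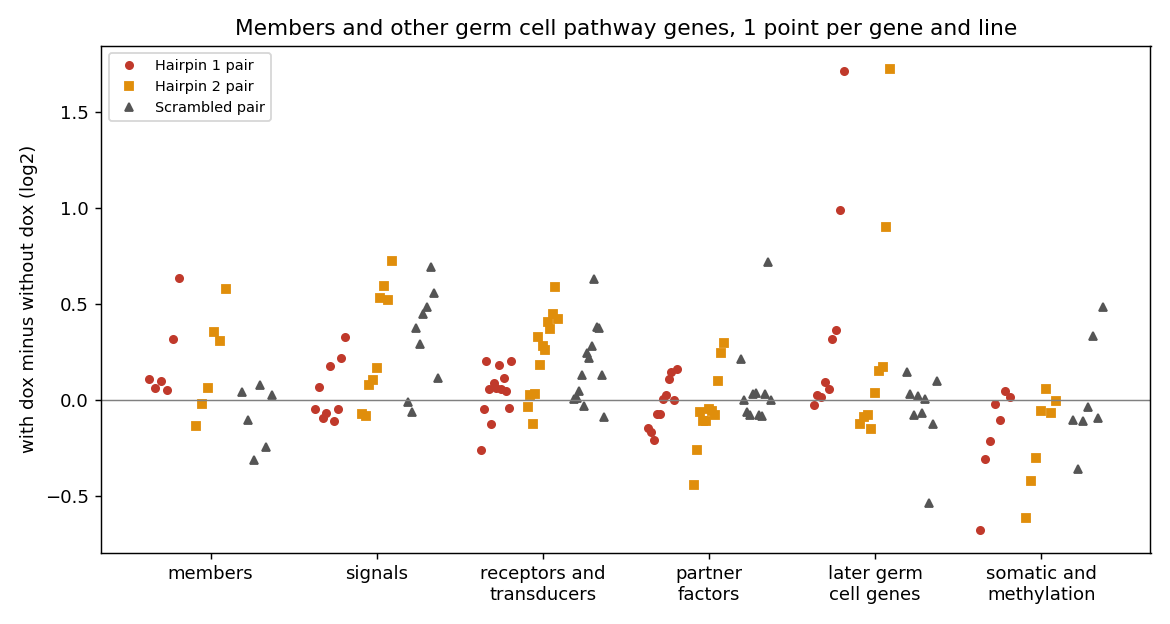
Change with dox, in log2 units, for the 6 genes (members) and 5 groups of other germ cell pathway genes, 1 point per gene in the hairpin 1 (circles), hairpin 2 (squares) and Scrambled (triangles) pairs, ordered within a group by the change over both hairpins. The 2 highest later germ cell genes in the hairpin pairs are Ddx4 and Dazl, which rose by 1.72 and 0.94 over both hairpins.

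Paralogues of the 6 genes were examined in the same comparison, and 0 of them passed by limma. Of 11 measured PR domain genes, Prdm2 measured 0.25 (SE 0.11), Prdm6 -0.19, Prdm10 -0.18 and Prdm13 -0.10, with a median of -0.02 for the family. The 4 other AP-2 genes, Tfap2a, Tfap2b, Tfap2d and Tfap2e, measured 0.02, 0.13, -0.05 and -0.13. Of 5 other Ifitm genes, Ifitm5, known from bone, measured -0.33 (SE 0.09, limma adjusted p = 0.406), with 7.43 on both induced arrays against 7.81 and 7.71 on the uninduced ones. Ifitm10, Ifitm2 and Ifitm7 measured 0.04, -0.02 and -0.01. Among receptor tyrosine kinase genes related to Kit, Pdgfra, its neighbour on chromosome 5, measured -0.07 under hairpin 1 and 0.88 under hairpin 2, Pdgfrb 0.25 (SE 0.16), Kdr -0.12 and Csf1r 0.10 over both hairpins. In the Scrambled pair Pdgfra measured 0.65 and Pdgfrb 0.71. Pdgfrb is also one of the 18 feeder markers, and hairpin 1, hairpin 2 and Scrambled gave it -0.09, 0.60 and 0.71. The part of the feeder cells in these values was not tested.

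Because Ifitm1 and Ifitm3 are interferon-inducible, interferon-response genes were read beside them. Of 21 listed, 18 were measured and 0 passed by limma, with 2 of the 18 at an unadjusted p under 0.05 (8.75% of all genes were). The median change was 0.15 over both hairpins, with 0.01 under hairpin 1 and 0.21 under hairpin 2. Xaf1 measured 0.49 (SE 0.13, limma adjusted p = 0.426), the RNA sensor gene Ifih1 0.45 (SE 0.12), Irf1 0.31 (SE 0.16) and Oas1a -0.26 (SE 0.14). In the Scrambled pair Xaf1 measured 0.24, Ifih1 0.36, Irf1 -0.06 and Oas1a -0.38, and the median of the 18 genes was 0.02. The mean level of the 18 genes was between 6.87 and 7.08 on all 6 arrays.

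The genes most like each of the 6 were ranked by Pearson's r over the 6 arrays, among 2561 or 2562 genes with a range of at least 0.5, as a description of patterns that share the same arrays. Predicted, RNA-only and Riken gene models and olfactory and vomeronasal receptors were skipped before this ranking. Kit was most like St8sia6 (r = 0.968), Gstz1 (r = 0.957) and Rnf213 (r = 0.955). Prdm14 was most like Cyp1a1 (r = 0.98), Susd2 (r = 0.977) and Ly6g6e (r = 0.94), and Prdm1 most like Nuak1 (r = 0.972), Sprr2b and Flvcr2. Tfap2c was most like Parvb (r = 0.993), Cotl1 and Idh2, and Ifitm1 most like Ltb (r = 0.99), Parvb (r = 0.989) and Lrrc31, so that Parvb stood near both. Tfap2c and Ifitm1 were also alike (r = 0.986), but Ifitm1, with a range of 0.31, was not among the genes ranked. For Ifitm3 the nearest were Zfp931 (r = 0.942), Zfp617 and Apobec3. With 6 arrays such values are reached by several of the genes ranked, 4 above 0.95 for Kit and 13 for Ifitm1.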

How the data were processed

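Log2 values of 35556 probe sets on 6 GeneChip Mouse Gene 1.0 ST arrays were used as deposited. Per the submitters' processing notes, the authors made these log2 values with Affymetrix Power Tools and RMA, which corrects the background, brings arrays to a common distribution and summarises probe sets, and so removes a change shared by most genes. Versions and settings of these tools are not given in the sources used here. Array medians lay between 7.02 and 7.08, and the number of arrays limits the precision. Of the probe sets, 21789 had 1 symbol in the platform annotation, 1621 several and 12146 none. Symbols were updated by Entrez identifier through RefSeq (GRCm38.p6), which matched 21698. Each gene was represented by its brightest probe set (highest mean of the 6 values), and none was filtered out for its level.

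Models were fitted with limma 3.58.1 in R 4.3.3 over all 19938 genes, two-sided, with Benjamini-Hochberg adjustment over all of them and a threshold of 0.05. A model of 4 group means gave the Pcgf6-hairpin contrast, its difference from Scrambled and the contrast between lines, and a model of 2 means gave dox against no dox over the 3 lines. Scrambled arrays were single and were assumed to vary like the hairpin groups. Errors given as SE are moderated. Nothing in the labels says that the cultures were separate, and p-values then measure only how far these samples spread, which may be technical. Arrays of the same hairpin come from the same line and are paired by it (their deviations from group means correlated at 0.181 across genes), and the line as a block was an alternative. The model code was tested on simulated data.

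The 6 genes and all gene lists were chosen with earlier results of these data known. Genes named were the 6, Pcgf6, the 3 most alike genes of each, called list members and up to 4 others per list with the largest change over both hairpins. Alternatives were the block, a filter on dim genes, quantile normalization, median centring, an intensity trend, the mean of a gene's probe sets, a feeder covariate, the hairpin arrays alone and each array left out.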

Additional observations from a re-analysis of the deposited data

How the results depend on the processing

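None of the 6 genes passed the threshold in any comparison under any alternative tried. Kit, Prdm1, Prdm14 and Tfap2c kept their direction in the Pcgf6-hairpin comparison under all 14 alternatives, Kit with values between 0.54 and 0.67. Several of these settings could not move that estimate. They were the block, the dim-gene filter, the intensity trend, the hairpin arrays alone and a Scrambled array left out. The mean of probe sets could not move it either, as each of these genes had 1 probe set. Several signs turned, not all of them for estimates near 0, and the cause was not tested. With median centring Ifitm1 was -0.00052 in that comparison and Ifitm3 -0.0214 over the 3 lines. With the feeder covariate Ifitm3 was 0.13 in the hairpin comparison, Tfap2c 0.19 and Ifitm1 0.0855 over the 3 lines, and Ifitm3 0.31 and Kit 0.00767 between lines. In the model used Ifitm3 was -0.081 and Kit -0.161 between lines. With an array left out the ranges were, in the hairpin comparison, -0.0114 to 0.0506 for Ifitm1 and -0.117 to 0.0825 for Ifitm3. They were -0.154 to 0.0452 for Ifitm3 in the difference from Scrambled. Over the 3 lines they were -0.18 to 0.17 for Tfap2c, -0.0843 to 0.0684 for Ifitm1 and -0.035 to 0.0689 for Ifitm3. Sizes also moved by over 1.5 times without a change of sign, and the cases given here are not all of them. Prdm1 in the hairpin comparison was 0.0549 with the feeder covariate and 0.12 to 0.28 with an array left out. Between lines Prdm1 was -0.0719 in the model used and -0.472 with the feeder covariate. In the difference from Scrambled it was 0.332 with the feeder covariate and 0.047 to 0.204 with an array left out. Prdm14 over the 3 lines was 0.0040 without the uninduced hairpin 1 array, 0.318 without the uninduced Scrambled array and 0.293 with the feeder covariate.

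The counts over all genes moved more. In the Pcgf6-hairpin comparison the 40 genes became 62 with an intensity trend, 7 without the dimmest 50% of genes and 16 with the feeder covariate. The count was lower with any hairpin array left out, which leaves 1 array in a group. Leaving out a Scrambled array could not alter it. In the difference from Scrambled the 14 became 23 with the replicate block, 4 without the dimmest 50%, 22 with median centring, 0 with the feeder covariate and 0 to 4 with an array left out. Over the 3 lines the count of 0 became 54 without the induced Scrambled array and lay between 0 and 54. Between lines the 8 became 4 without the dimmest 50%, 36 with median centring, 69 with an intensity trend, 0 with the feeder covariate and 0 to 212 with an array left out. The replicate block, in which hairpin lines pair the arrays, changed no call among the 6 genes, and could not be fitted between lines. Fewer genes or residual degrees of freedom are part of several of these settings.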
